A study of Mus musculus with 6 samples.

Results

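The transcripts examined are those of 6 chemokine receptors, Ccr2, Cxcr3, Cxcr4, Ackr1, Ackr2 and Ackr3, selected from the table by gene symbol, without a threshold on any measured value. All 6 were among the 18058 genes of the deposited table. Brainstems of 3 wild type (WT) C57BL/6J mice and of 3 Rag1-/- mice (B6.129S7-Rag1tm1Mom/J), all naïve and 1 month old, had been snap-frozen and their total RNA sequenced, with 1 library per mouse. Rag1-/- mice carry a germline deletion in every cell, cannot assemble antigen receptor genes and therefore have no mature T or B cells, while all other leukocytes are retained. The sequencing was performed to find transcripts that differ in a brainstem permissive for human glioma xenografts, and the question here was whether receptors for chemokines differed. Since each value is the average of a whole brainstem, fewer cells of a type and less RNA per cell cannot be told apart.

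Chemokines are small secreted proteins that guide migrating cells, and they act on receptors with several membrane-spanning helices. Typical receptors (Ccr2, Cxcr3, Cxcr4) activate inhibitory G proteins through a short box after the third helix, whereas atypical receptors (Ackr1, Ackr2, Ackr3) do not couple to G proteins in this way and instead bind, transport or degrade chemokines. Ccr2 is known from monocytes, Cxcr3 from activated T cells and NK cells, and Cxcr4 from leukocytes, endothelium and neural progenitors. Ackr1 is known from venules, red blood cell precursors and cerebellar Purkinje cells, Ackr2 from lymphatic endothelium, and Ackr3, a scavenger of Cxcl12, from brain vessels and neurons.

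The coding stretch around this box is shown because typical receptors couple to G proteins through it and the atypical receptors differ among themselves in it. Each line gives 45 bases of the coding strand (GENCODE M21, GRCm38), with 7 codons in capitals, the 3 of the box and the next 4, as placed by an alignment of the 6 translated coding sequences.
Cxcr4, chr1:128589488-128589532, minus strand: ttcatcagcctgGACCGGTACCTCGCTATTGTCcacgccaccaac
Ccr2, chr9:124106120-124106164, plus strand: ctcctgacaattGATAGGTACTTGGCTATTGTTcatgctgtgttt
Cxcr3, chrX:101732584-101732628, minus strand: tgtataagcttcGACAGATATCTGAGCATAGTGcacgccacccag
Ackr3, chr1:90214229-90214273, plus strand: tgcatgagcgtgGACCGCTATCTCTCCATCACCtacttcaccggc
Ackr2, chr9:121908966-121909010, plus strand: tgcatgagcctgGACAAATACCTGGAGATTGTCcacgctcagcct
Ackr1, chr1:173332465-173332509, minus strand: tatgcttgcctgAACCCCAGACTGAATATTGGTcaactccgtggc
Of the 7 codons, those for the same amino acid as in Cxcr4 numbered 7 in Ccr2, 6 in Cxcr3, 5 in Ackr3, 5 in Ackr2 and 2 in Ackr1. Over the first 3 codons, which give the Asp-Arg-Tyr motif in Cxcr4, all 3 were the same in Ccr2, Cxcr3 and Ackr3, 2 were the same in Ackr2 and 0 in Ackr1.

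The libraries were examined first. Their depth, estimated from the steps among low values, lay between 31600000 and 46400000 reads, so that 3 reads, taken as the floor, stood for 0.0646 to 0.0951 CPM, the count of a gene scaled to the total of its library. Rag1 transcripts were at 0.246 ± 0.137 CPM (SD, n = 3) in WT and at 3.18 ± 0.750 CPM (SD, n = 3) in the Rag1-/- libraries, so that the level of the targeted gene goes against a loss of its transcripts and each direction given here rests on the label. Ms4a1, a B cell gene, was at 0.0473, 0.108 and 0.0863 CPM in WT and at the lowest deposited value of 0.0001 CPM in all 3 Rag1-/- libraries. Of the 3 B cell genes that could be tested, 0 had a limma-trend p of 0.05 or lower before adjustment. The log2 fold change was below 0 in 2 of these 3, while Pax5, the most abundant of the list, averaged 0.739 CPM in WT and 0.954 CPM in Rag1-/-. Xist, which marks female tissue, reached 172 and 177 CPM in 2 WT libraries, replicates 1 and 2, but only 2.93 CPM or less in WT replicate 3 and all 3 libraries labelled Rag1-/-, so that sex is partly confounded with genotype. Brainstem markers were present in each library but uneven, with Tph2, an enzyme of serotonin synthesis, between 10.0 and 58.0 CPM and Hoxb3 between 0.412 and 7.86 CPM. Of 7 granulocyte markers tested, 5 were lower in Rag1-/- libraries at a limma-trend p of 0.05 or lower before adjustment (9.29% of all tested genes) and 0 passed adjustment. Of these 5, 1, Mpo, passed the filter on a mean of 0.1 CPM only through WT. The list had a summed level in Rag1-/- of 3.41 to 6.09 CPM against 5.62 to 18.5 CPM in WT.

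A difference between the genotypes was detected for 0 of the 6 receptors. The values of the WT and Rag1-/- libraries overlapped for 6 of the 6 genes, whereas 18.4% of all 16762 tested genes had groups that did not overlap. Of the 6 receptors, 5 had a mean of at least 0.1 CPM and were tested by limma-trend on log2(CPM + 0.1), a scale that understates the changes of low transcripts. With Benjamini-Hochberg adjustment over all tested genes, 0 of 5 had an adjusted p under 0.05 and 0 of 5 had an unadjusted p of at most 0.05, against 0.0477% and 11.6% of all tested genes by limma-trend. The adjusted limma-trend p ranged from 0.745 for Ackr1 to 0.983 for Ackr3. The differences were small, with a median log2 fold change of -0.025 for the 5 receptors and -0.051 for all tested genes. The precision, however, was unequal: it was narrow for Ackr1 and Ackr3 and broad for Ccr2 and Ackr2.

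**Figure D1:**
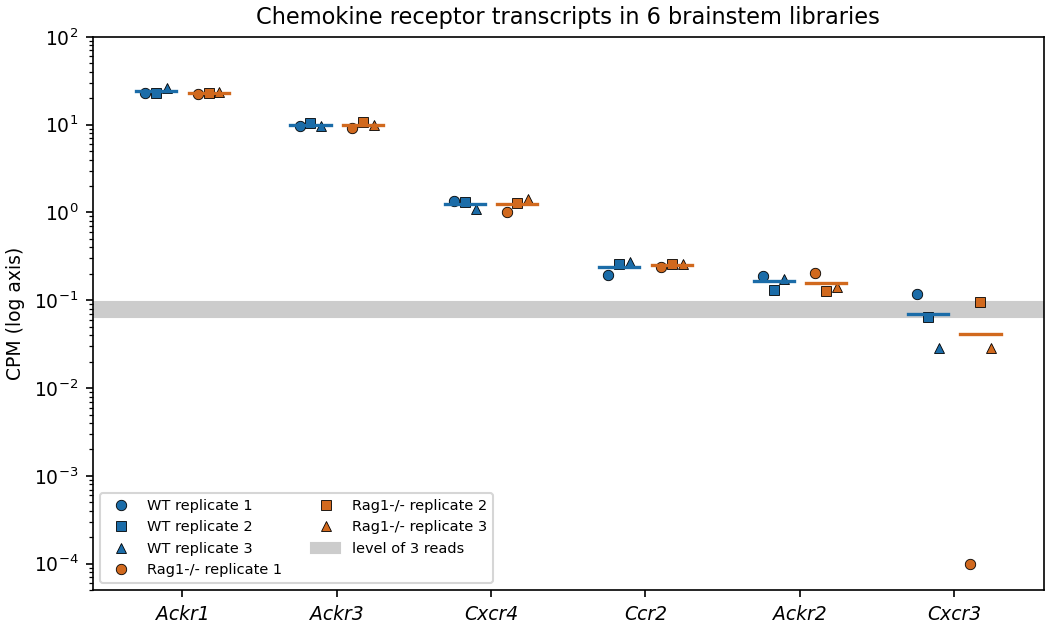
Level of each receptor in CPM on a log axis, with 1 point per library (WT blue, Rag1-/- orange, marker shape by replicate number) and a bar at the mean of each genotype. Ackr1 lies near 23 CPM and Ackr3 near 10 CPM in every library, while Cxcr3 lies within or under the grey band that marks 3 reads in 5 of 6 libraries, with its lowest point at the file minimum of 0.0001 CPM.

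Levels of different genes were compared per kilobase of the GENCODE M21 transcript used for each gene. In this measure the order was Ackr1 at 20.2 ± 1.13 CPM per kb (SD over 6 libraries), Ackr3 at 3.23 ± 0.186, Cxcr4 at 0.688 ± 0.0877, Ccr2 at 0.0821 ± 0.00931, Ackr2 at 0.0532 ± 0.0106 and Cxcr3 at 0.0323 ± 0.0259 CPM per kb. The first 3 steps in this order were larger than the spread, since the ranges of the 6 libraries did not overlap between Ackr1 and Ackr3 (6.27-fold), Ackr3 and Cxcr4 (4.69-fold), or Cxcr4 and Ccr2 (8.38-fold). The ranges of Ccr2 and Ackr2 overlapped, although within each library the level of Ccr2 was above that of Ackr2, from few reads. Between Ackr2 and Cxcr3 the ranges overlapped as well, and their order was not resolved. Both of the most abundant transcripts thus encode atypical receptors, but the level of Ackr1 cannot be read alone because its gene model, though separate in the deposited table, overlaps that of a neighbour in GENCODE M21 and RefSeq.

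Among the typical receptors, Cxcr4 (chromosome 1, 128588199 to 128592299, minus strand, mm10) was the most abundant. Its level was 1.35, 1.31 and 1.09 CPM in WT replicates 1, 2 and 3 and 1.01, 1.27 and 1.42 CPM in Rag1-/- replicates 1, 2 and 3. The lowest and the highest of these values both came from Rag1-/- libraries, and the WT values lay between them. The means were 1.25 ± 0.138 CPM in WT and 1.23 ± 0.208 CPM in Rag1-/- (SD, n = 3), with a log2 fold change of -0.025 (95% interval -0.43 to 0.38, adjusted p = 0.969 by limma-trend).

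Ccr2 (chromosome 9, 124102183 to 124109140, plus strand), the receptor for Ccl2 on monocytes, had levels of 0.193, 0.261 and 0.270 CPM in WT mice, and levels of 0.239, 0.257 and 0.258 CPM in Rag1-/- mice. The latter all lay within the WT range. These values stand for only 8 to 12 reads per library. The log2 fold change was 0.048 with a 95% interval of -0.50 to 0.60 (adjusted p = 0.954 by limma-trend). Among monocyte markers 3 of 8 tested genes, namely Ly6c2, Lyz2 and Chil3, were lower with a limma-trend p of 0.05 or lower before adjustment, where 9.29% of all tested genes were lower, and 0 passed adjustment. The summed level of the list was mostly Fn1, at 61.3 to 69.6 CPM in WT and 55.7 to 67.7 CPM in Rag1-/-, and the other 7 genes summed to 8.84 to 13.4 CPM in WT and 8.02 to 9.60 CPM in Rag1-/-. Ly6c2, a marker of the monocytes on which Ccr2 is best known, was at 0.189, 0.492 and 0.139 CPM in WT and at 0.0457, 0.0973 and 0.0446 CPM in Rag1-/-, and it passed the filter only through WT. Whether these markers bear on the level of Ccr2 was not tested.

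Cxcr3 (chromosome X, 101731535 to 101734147, minus strand) is the receptor for Cxcl10, the chemokine on which the study centred. It was at 0.118, 0.0647 and 0.0288 CPM in WT and at 0.0001, 0.0951 and 0.0286 CPM in Rag1-/-, which corresponded to 5, 3 and 1 reads and to 0, 3 and 1 reads, respectively. In 5 of 6 libraries it did not exceed 3 reads, it was under the filter, and it was not tested with the other genes. Pooled over the libraries of a genotype, the 9 reads in WT gave 0.0728 CPM (exact Poisson 95% interval 0.0333 to 0.138) and the 4 reads in Rag1-/- gave 0.0395 CPM (0.0108 to 0.101), intervals that overlap and cover counting error only. A difference in Cxcr3 was not resolved by these few reads, and no fold is given because 5 of 6 libraries were at or under the floor. Among transcripts of the T cells that carry Cxcr3, Cd3e was at 0.0237, 0.0216 and 0.144 CPM in WT and at 0.0001, 0.0318 and 0.0001 CPM in Rag1-/-. Cd28, also under the filter, was at 0.0945, 0.0647 and 0.201 CPM in WT and at 0.0001, 0.0318 and 0.0570 CPM in Rag1-/-, without overlap. Of 10 listed T cell genes 3 (Lck, Cd4 and Cd247) passed the filter, and by limma-trend the smallest p among them before adjustment was 0.636, so that most of the list was not tested. The log2 fold change was below 0 in 0 of these 3, with a median of 0.10, and Cd5, also under the filter, was at 0.189, 0.0647 and 0.0288 CPM in WT and at 0.0579, 0.127 and 0.114 CPM in Rag1-/-, so that the listed genes did not run in 1 direction.

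Of the atypical receptors, Ackr3 (chromosome 1, 90203980 to 90215722, plus strand) was at 9.65, 10.4 and 9.54 CPM in WT and at 9.21, 10.7 and 9.79 CPM in Rag1-/-. Both the lowest and the highest values were again in Rag1-/- libraries. The means of 9.87 ± 0.468 CPM and 9.92 ± 0.771 CPM (SD, n = 3) differed by a log2 fold change of 0.0054 (95% interval -0.18 to 0.19, adjusted p = 0.983 by limma-trend). Over the 6 libraries, the genes whose log2 values followed Ackr3 most closely were Tle1 (Pearson r = 0.997), Vwf (r = 0.996) and Mterf2 (r = 0.992), out of 14032 genes averaging 1 CPM or more, 13 of which had r over 0.95. Genes picked as the closest of so many over 6 libraries can reach such values without any relation, and they are given as a description.

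Ackr2 (chromosome 9, 121898355 to 121911071, plus strand), which degrades inflammatory CC chemokines, was at 0.189, 0.129 and 0.173 CPM in WT and at 0.202, 0.127 and 0.142 CPM in Rag1-/-. These values stood for 4 to 8 reads per library, and the groups overlapped. The log2 fold change was -0.040 (95% interval -0.67 to 0.59, adjusted p = 0.967 by limma-trend), the broadest interval among the 5 receptors tested. Of the lymphatic endothelial markers, 4 of 5 were tested and 1, Flt4, was lower with a limma-trend p of 0.05 or lower before adjustment (adjusted p = 0.386), where 9.29% of all tested genes were lower, while Ccl21a did not exceed 0.0641 CPM in any library.

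**Figure D2:**
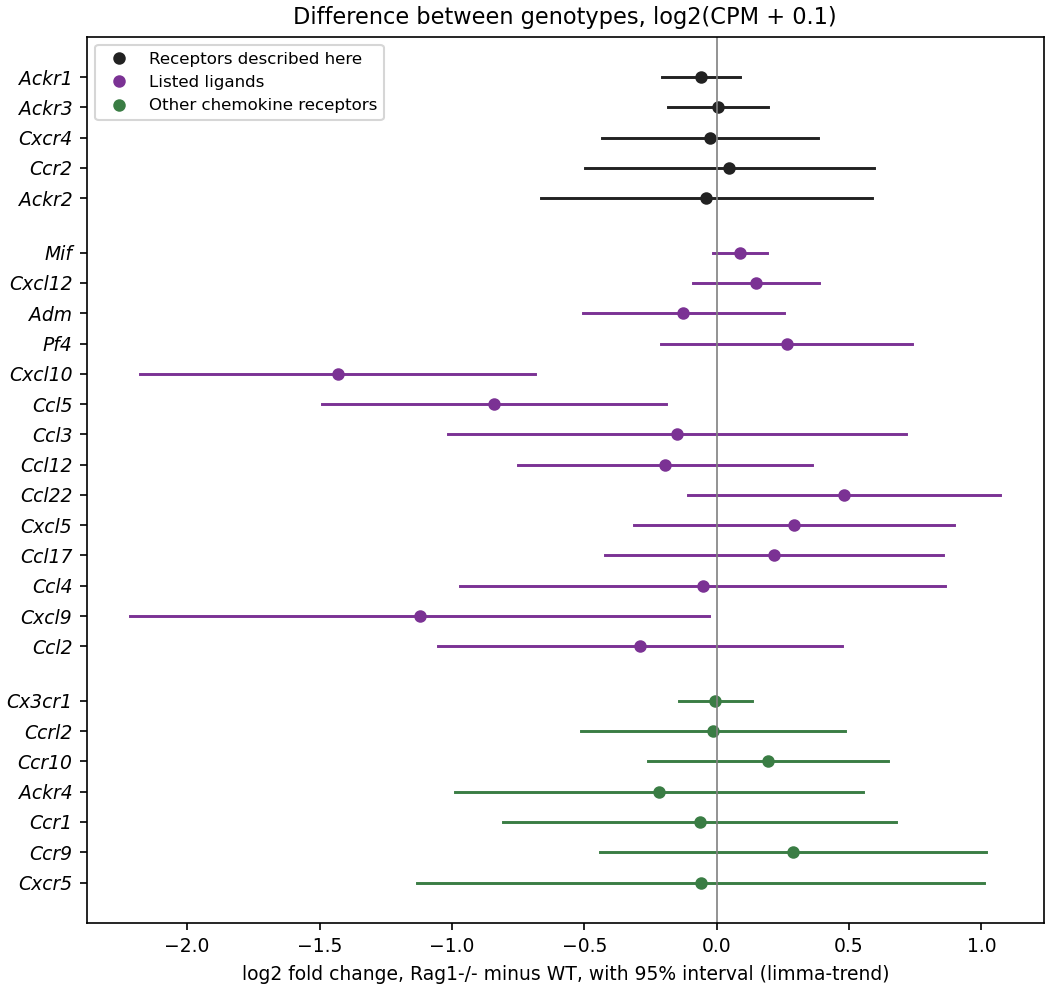
Log2 fold change (Rag1-/- minus WT, horizontal axis) with its 95% interval from limma-trend for the 5 tested receptors (black), the 14 tested ligands (purple) and 7 of the 8 other chemokine receptors tested (green), each ordered by mean CPM. The intervals of all 5 receptors include 0, and the intervals of Cxcl10 and Ccl5 lie below 0, as does that of Cxcl9, which passed the filter only through WT and from which nothing is read.

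Ackr1 (chromosome 1, 173331886 to 173333503, minus strand) encodes a receptor without signalling that carries chemokines across venules. Its level was 22.7, 23.0 and 25.9 CPM in WT and 22.2, 22.8 and 23.5 CPM in Rag1-/-. WT replicate 3 was the highest of all, and the other WT libraries lay among the Rag1-/- values. The means were 23.8 ± 1.77 CPM and 22.8 ± 0.612 CPM (SD, n = 3), with a log2 fold change of -0.059 (95% interval -0.21 to 0.088, adjusted p = 0.745 by limma-trend), and without WT replicate 3 the log2 fold change was 0.0015. With a term for the libraries high in Xist, which leaves WT replicate 3 as the only WT library low in Xist, it was -0.18. Of the other transcripts of venular endothelium, Selp, encoding P-selectin, did not exceed 0.142 CPM, whereas Vwf was at 25.2 to 34.4 CPM, and the summed level of the list was 91.6 to 97.3 CPM in WT and 87.2 to 103 CPM in Rag1-/-. In this list 6 of the 7 genes were in the table, of which 5 were tested and 0 had a limma-trend p of 0.05 or lower before adjustment. Red blood cell markers, examined because Ackr1 is known from their precursors, summed to 647 to 1883 CPM in WT and 897 to 1442 CPM in Rag1-/-. The part of these cells in the level of Ackr1 was not tested.

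The start of Ackr1 lies beside the end of Cadm3, a gene on the same strand that encodes a neuronal adhesion molecule. In the deposited table the span of Cadm3 (173334254 to 173367695) ends 750 bases before Ackr1 begins. In GENCODE M21 the last exon of the Cadm3 transcript Cadm3-202 extends to 173333258 and contains the whole first exon of Ackr1, which is 113 bases or 9.80% of the 1153-base Ackr1 transcript and includes 21 of its coding bases. In the RefSeq annotation of GRCm38.p6 the Cadm3 gene reaches 173331892, and so spans all but 6 bases of Ackr1. Cadm3, examined after the values of Ackr1 had been seen, was at 346, 347 and 419 CPM in WT and at 315, 336 and 340 CPM in Rag1-/-, and WT replicate 3 was the highest in both genes. The level of Ackr1 was 6.55%, 6.63% and 6.17% of that of Cadm3 in WT and 7.07%, 6.81% and 6.91% in Rag1-/-. These ratios were 6.45% ± 0.247 and 6.93% ± 0.130 (SD, n = 3) and did not overlap, with p = 0.1 in the exact two-sided permutation test, the smallest that 3 samples against 3 allow. Cadm3 itself was lower in each Rag1-/- library than in any WT library (log2 fold change -0.16, unadjusted p = 0.0630, adjusted p = 0.453 by limma-trend). The values of Ackr1 overlapped, so the ratio is not a measure of Ackr1 alone. Across the 6 libraries, the log2 values of the pair had a Pearson r of 0.957 (exact permutation p = 0.0208) and a Spearman rho of 0.714 (exact permutation p = 0.136). By this r, Cadm3 ranked 64th among the 14032 genes compared with Ackr1, a number for which these p-values were not adjusted. The relation rested on the extreme libraries, since r was 0.646 without WT replicate 3 and -0.270 without WT replicate 3 and Rag1-/- replicate 1, and each genotype holds too few libraries for a value of its own. How many of the reads given to Ackr1 came from transcripts of Cadm3 was not tested, because the table holds 1 value per gene.

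**Figure D3:**
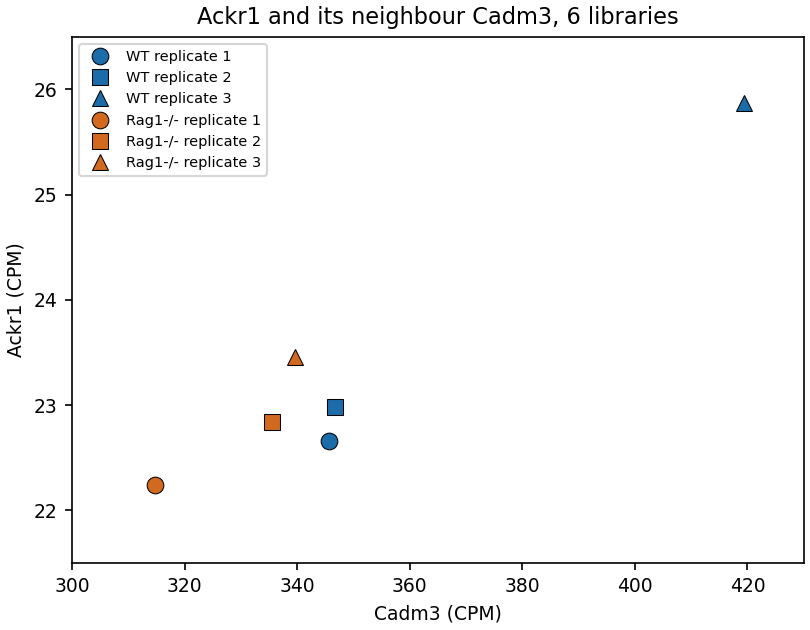
Ackr1 against Cadm3, both in CPM on linear axes that do not start at 0, with 1 point per library (WT blue, Rag1-/- orange, marker shape by replicate number). WT replicate 3 is highest in both at 419 and 25.9 CPM, and the other 5 libraries lie between 315 and 347 CPM of Cadm3.

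Cxcr4 and Ackr3 share the ligand Cxcl12, which makes the balance between signalling and scavenging receptor of interest. The log2 ratio of Cxcr4 to Ackr3 within a library, which does not depend on library scaling apart from the pseudocount, was -2.75, -2.89 and -3.02 in WT and -3.07, -2.99 and -2.70 in Rag1-/-. The difference of -0.030 was smaller than the SD of 0.131 in WT and 0.194 in Rag1-/- (exact two-sided permutation test, p = 0.9). Cxcl12 itself was at 59.5, 52.8 and 46.4 CPM in WT and 51.7, 65.6 and 58.6 CPM in Rag1-/-, with a log2 fold change of 0.15 (95% interval -0.090 to 0.39, adjusted p = 0.595 by limma-trend). The log2 fold change of Cxcl12 was 0.24 without WT replicate 1 (unadjusted p = 0.0479, adjusted p = 0.567 by limma-trend). It was 0.33 with a term for the libraries high in Xist, which rests on WT replicate 3, the library lowest in Cxcl12. Among the alternatives without that term, no other gave Cxcl12 an unadjusted p of at most 0.05. Mif, a second ligand of Cxcr4, was at 209 to 213 CPM in WT and 216 to 236 CPM in Rag1-/- (log2 fold change 0.087, adjusted p = 0.486 by limma-trend), without overlap of the groups. Its log2 fold change was 0.13 with median-of-ratios rescaling (unadjusted p = 0.0219, adjusted p = 0.474 by limma-trend) and 0.12 with quantile normalization (unadjusted p = 0.0281, adjusted p = 0.527 by limma-trend), but 0.048 without Rag1-/- replicate 1 (unadjusted p = 0.289, adjusted p = 0.832 by limma-trend). The genes closest to Cxcr4 over the 6 libraries were Adgrl4 (Pearson r = 0.997), Mdga2 (r = 0.980) and Rlf (r = 0.978), and 12 of 14032 genes had r over 0.95. Closest to Ackr1 were Ipcef1 (r = 0.993), Zfp384 (r = 0.990) and Cdan1 (r = 0.988), and 93 genes had r over 0.95. The same limit holds for both.

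The ligands were then examined as a list of 20, of which 18 were in the table and 14 were tested. Of these 14, 3 were lower in Rag1-/- at a limma-trend p of 0.05 or lower before adjustment, 0 were higher, 11 did not pass, and 0 had an adjusted p under 0.05. Over all tested genes 9.29% were lower and 2.27% higher at this threshold, so that calls in the whole table also leaned to lower values. The median log2 fold change of the list was -0.089. The 3 lower ligands were Cxcl10 and Cxcl9, which act on Cxcr3, and Ccl5, which is bound by Ackr1 and Ackr2. Cxcl10 was at 0.850, 1.46 and 0.661 CPM in WT and at 0.173, 0.349 and 0.370 CPM in Rag1-/-, and the groups did not overlap. Its log2 fold change was -1.43 (95% interval -2.18 to -0.68, unadjusted p = 0.00201, adjusted p = 0.289 by limma-trend). Ccl5 was at 0.401, 0.883 and 0.805 CPM in WT and at 0.318, 0.349 and 0.313 CPM in Rag1-/- (log2 fold change -0.84, adjusted p = 0.372 by limma-trend), again without overlap. Cxcl9 was at 0.0473, 0.323 and 0.316 CPM in WT and at 0.0290, 0.0951 and 0.0001 CPM in Rag1-/-, and WT replicate 1 lay among the Rag1-/- values. It was at or under 3 reads in 4 of 6 libraries and passed the filter only through WT, so that no fold is given and its place among the 3 is no support for them, which leaves 2 ligands that passed through both genotypes. Without WT replicate 2 or without WT replicate 3 only 1 ligand, Cxcl10, had an unadjusted p of at most 0.05. With the term for Xist, which rests on WT replicate 3, the log2 fold change of Cxcl10 was -0.98 (95% interval -1.96 to 0.00015) and that of Ccl5 was -1.09. Cxcl11, the third interferon-induced ligand of Cxcr3, was under the filter at 0.144 CPM or less, and Pf4 was at 0.661, 0.883 and 1.09 CPM in WT and 0.953, 1.17 and 1.05 CPM in Rag1-/-.

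**Figure D4:**
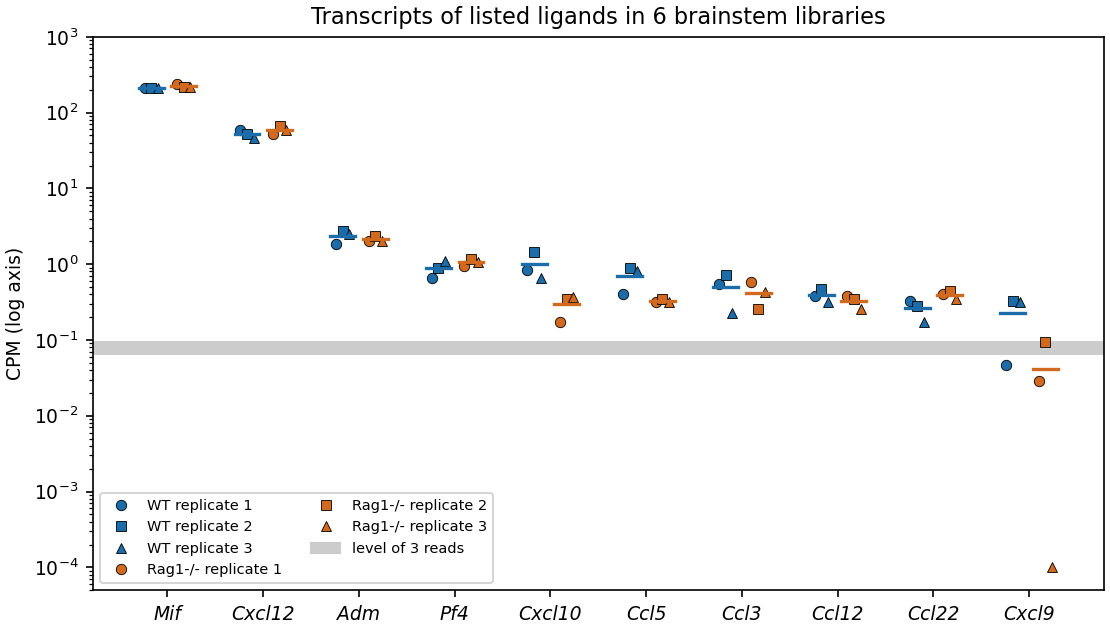
Level of 10 listed ligands in CPM on a log axis, drawn as for the receptors, with the grey band at 3 reads. The 3 Rag1-/- points of Cxcl10 lie between 0.173 and 0.370 CPM, all under the WT points, while the points of Cxcl12 overlap.

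The Ccr2 ligands Ccl2 and Ccl12 were at 0.0647 to 0.201 CPM and 0.316 to 0.474 CPM in WT and at 0.0855 to 0.127 CPM and 0.256 to 0.376 CPM in Rag1-/-, and 0 of these 2 had a limma-trend p of 0.05 or lower before adjustment, of which Ccl2 passed the filter only through WT. Of the Ackr2 ligands, 6 of 7 were tested and only Ccl5 passed the unadjusted threshold, a share near the 11.6% of all tested genes. Ccl22 was higher in each Rag1-/- library (0.342 to 0.444 CPM) than in any WT library (0.173 to 0.330 CPM), with a log2 fold change of 0.48 and an unadjusted limma-trend p of 0.0983 (adjusted p = 0.503). By limma without the trend, the unadjusted p was 0.0430 and the adjusted p 0.498. With the term for Xist, which rests on WT replicate 3, its log2 fold change was 0.86.

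Among 17 other chemokine receptors, 10 were in the table, 8 were tested and 0 had a limma-trend p of 0.05 or lower before adjustment, with a median log2 fold change of -0.0091. The highest by CPM, which is not corrected for length, was Cx3cr1, the microglial fractalkine receptor, at 37.7 to 44.1 CPM in WT and 39.7 to 40.8 CPM in Rag1-/-. For Ccr2, unlike Cxcr3 and Ackr2, the deposited values were not whole multiples of 1 read, with a largest distance of 0.386 read from a whole number. Of 12 signalling partners (inhibitory G protein subunits, arrestins, receptor kinases and Rgs proteins), 11 were tested and 0 had a limma-trend p of 0.05 or lower before adjustment. The log2 fold change was below 0 in 11 of 11, with a median of -0.055 that was near the median of all tested genes. The highest by CPM were Gnao1, at 402 to 441 CPM, and Arrb1, the arrestin that binds phosphorylated receptors, at 311 to 333 CPM over the 6 libraries.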

How the data were processed

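Total RNA of 3 WT and 3 Rag1-/- brainstems was sequenced. Per the labels and the study's methods, the authors demultiplexed with bcl2fastq, aligned reads to mm10 with STAR 2.5.3a and obtained counts per RefSeq gene with Partek Flow. The deposited values are CPM, each count divided by the library total, and none is lower than 0.0001. Library strandedness and gene filters are not given in the sources used here. The listed genes hold 79.1% to 80.4% of each library's total.

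From these values, log2(CPM + 0.1) was computed, limma-trend (limma 3.58.1, R 4.3.3) compared Rag1-/- minus WT for 16762 genes averaging 0.1 CPM or more, with Benjamini-Hochberg adjustment, and 1296 genes were not tested. The p-values measure the spread between mice. Single genes and ratios were compared by exact two-sided permutation tests. The fit was tested on simulated data. Whole reads were not recovered over the table: 86.8% to 88.2% of low values were whole multiples of 1 read within 0.1 read, so no count test was run across genes. Read numbers are estimates from these steps. Counting intervals are given only for Cxcr3, the receptor not tested by limma-trend. Its values all lay within 0.1 of a whole read, as did those of Ackr2, Cxcr4 and Ackr3. Coordinates are those deposited, with the end 1 base before the stop. Transcript lengths and sequences came from GENCODE M21, and the receptors were aligned with MAFFT 7.526.

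The receptors and lists were chosen with earlier results of these data known. Named genes were the receptors, their ligands, in each list the 2 most abundant and those with p of 0.05 or lower before adjustment, and the 3 genes closest in pattern to each receptor of at least 1 CPM. Some genes that this rule names are not reported here. Other genes named were chosen after their values were seen: Cadm3, Rag1, Xist, Hoxb3, Selp, Ccl21a, Cd5, Cd28, Cd247, Cd3e and Ms4a1. Alternatives were other pseudocounts, filters, scalings and variance models, a term for high Xist, a block for replicate number and the omission of each library in turn.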

Additional observations from a re-analysis of the deposited data

How the results depend on the processing

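The number of receptors with an adjusted p under 0.05 was 0 in each of the 15 alternatives tried with limma. With a term for libraries with Xist over 100 CPM, the genotype difference among libraries low in Xist rests on WT replicate 3. In this fit the log2 fold change was -0.18 for Ackr1 and -0.99 for Ackr4, another chemokine receptor, and no p-value is read from it. The receptors' log2 fold changes turned sign in 15 of 73 values, none past a threshold: Cxcr4 was 0.014 with median-of-ratios rescaling, 0.085 with quantile normalization and 0.15 with the Xist term, Ackr2 was 0.091 with quantile normalization, and Ccr2 was -0.076 with the Xist term. With 1 library left out they ranged from -0.058 to 0.11 for Ccr2, -0.13 to 0.10 for Cxcr4, -0.094 to 0.0015 for Ackr1, -0.16 to 0.045 for Ackr2 and -0.053 to 0.057 for Ackr3, and the Cxcr4 to Ackr3 difference from -0.14 to 0.045. The 3 ligands became 0 with a mean CPM of at least 1, where fewer genes are tested, and 1 to 4 with a library left out. The 8 genes called over the whole table became 4 with pseudocount 0.01, 4 with no filter, 4 when genes had to average 1 CPM, 5 with quantile normalization, 2 without the trend, 134 with the Xist term and 2 to 24 with a library left out (24 without WT replicate 3), and the cause was not tested. Deviations from the group means correlated at 0.0926, -0.22 and -0.0183 in the pairs of libraries with the same number. Pairs with different numbers were not compared, so these values cannot show whether libraries of the same number share more than that number. With the replicate block 3 genes were called in all, with 0 receptors. Depth limits Cxcr3, Ackr2 and Ccr2, at 12 reads or fewer per library.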
